A study of Mus musculus with 4 samples.

Results

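Of the 12925 reproducible pSTAT3 regions, 2298 (17.8%, 95% Wilson interval 17.1 to 18.4%) lay in distal intergenic sequence. A region was counted as distal intergenic when its midpoint was inside no transcript of the authors' region table, over 25 kb from the nearest transcription start listed there and over 1 kb from every listed 3' end. All reproducible regions had already been kept by the authors for agreement between the replicates. Among them, position relative to the listed transcripts alone chose the distal ones, and enrichment was not used in that step. The distances to starts are part of the choice and are given as a description.

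The regions come from chromatin immunoprecipitation and sequencing of tyrosine-phosphorylated STAT3 (pSTAT3) in C57BL/6 mouse oligodendrocyte progenitors, cultured as primary cells from cortex. All cells were grown with bFGF at 20 ng/ml and PDGF-AA at 10 ng/ml and then given 100 ng/ml CNTF for 15 min. There were 2 pSTAT3 ChIP libraries, and 2 input libraries of equally treated cells that were not analysed here. With 2 libraries of 1 treated group and no untreated cells, no test across conditions was possible, and all values below are descriptions. The labels give no separate culture for each library and the protocol pools lysed cells, so the spread between replicates may be technical. The files hold no expression values, so the labelled cell type was not checked against its marker genes.

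CNTF binds a receptor complex of CNTFR, gp130 and LIFR, whose JAK kinases phosphorylate STAT3. The phosphorylated dimer enters the nucleus and binds short palindromic DNA elements, known as gamma-activated sites, at promoters and at enhancers that may lie far from the genes they serve. Oligodendrocyte progenitors are the dividing glial cells that give rise to myelinating oligodendrocytes, and cytokines of the CNTF family are known to act on their survival and differentiation and to promote astrocyte fates in neural precursors. The gene nearest to a distal site is a label of position and is not known here to be its target.

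Sequence could be read only where a distal region met the promoter window of an annotated gene in RefSeq (GRCm38.p6), since no genome sequence was used here. A window held 250 bases before and 50 after a RefSeq start. In all, 66 of the 2298 regions shared at least 1 bp with such a window, only 6 of them with that of a protein-coding gene, and 34 had the summits of both replicates inside 36 windows. The letters searched were TTCCNGGAA, and TTCNNNGAA, which holds the first as a subset. Both read the same on both strands. The 6 windows with TTCCNGGAA are shown first, because they put the STAT element beside the summits of the bound region. A window with TTCNNNGAA alone and the window of the strongest distal region that has one follow. Capitals mark the matches, and each sequence runs 5′ to 3′ on the strand of its transcript.

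Gm33714: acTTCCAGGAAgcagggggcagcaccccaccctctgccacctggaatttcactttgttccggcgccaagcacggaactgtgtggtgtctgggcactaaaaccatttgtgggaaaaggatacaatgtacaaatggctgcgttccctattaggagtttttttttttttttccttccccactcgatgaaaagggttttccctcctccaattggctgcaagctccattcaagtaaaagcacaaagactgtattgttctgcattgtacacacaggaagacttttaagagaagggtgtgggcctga
1700011C11Rik: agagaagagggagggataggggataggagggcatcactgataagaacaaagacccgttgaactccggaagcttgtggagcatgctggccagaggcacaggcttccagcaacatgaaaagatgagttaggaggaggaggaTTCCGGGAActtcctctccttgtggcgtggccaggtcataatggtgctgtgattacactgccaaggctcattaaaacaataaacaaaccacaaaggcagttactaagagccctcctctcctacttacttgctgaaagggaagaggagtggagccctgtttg
Gm42262: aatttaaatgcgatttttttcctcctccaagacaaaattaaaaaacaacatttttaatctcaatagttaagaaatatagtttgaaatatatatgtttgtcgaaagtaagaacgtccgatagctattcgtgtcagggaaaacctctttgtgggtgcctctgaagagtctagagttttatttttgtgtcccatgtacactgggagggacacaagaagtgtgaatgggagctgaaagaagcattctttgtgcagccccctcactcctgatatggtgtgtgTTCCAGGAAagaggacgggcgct
Gm35440: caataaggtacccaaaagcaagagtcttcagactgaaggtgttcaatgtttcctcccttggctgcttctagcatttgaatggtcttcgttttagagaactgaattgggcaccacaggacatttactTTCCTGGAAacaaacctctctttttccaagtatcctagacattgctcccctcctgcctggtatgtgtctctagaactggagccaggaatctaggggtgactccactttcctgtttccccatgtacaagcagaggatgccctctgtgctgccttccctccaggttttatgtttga
Gm38856: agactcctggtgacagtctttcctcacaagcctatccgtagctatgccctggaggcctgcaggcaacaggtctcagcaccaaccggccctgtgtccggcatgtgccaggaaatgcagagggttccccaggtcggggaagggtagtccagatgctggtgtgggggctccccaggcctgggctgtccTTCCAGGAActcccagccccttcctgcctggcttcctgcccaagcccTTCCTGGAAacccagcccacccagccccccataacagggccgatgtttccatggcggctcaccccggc
Gm38902: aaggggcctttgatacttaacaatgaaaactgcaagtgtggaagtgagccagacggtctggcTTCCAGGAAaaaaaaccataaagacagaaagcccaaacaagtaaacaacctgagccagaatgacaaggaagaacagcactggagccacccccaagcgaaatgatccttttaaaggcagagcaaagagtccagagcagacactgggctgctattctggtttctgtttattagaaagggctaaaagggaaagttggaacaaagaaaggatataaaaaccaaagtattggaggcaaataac
Gm31318: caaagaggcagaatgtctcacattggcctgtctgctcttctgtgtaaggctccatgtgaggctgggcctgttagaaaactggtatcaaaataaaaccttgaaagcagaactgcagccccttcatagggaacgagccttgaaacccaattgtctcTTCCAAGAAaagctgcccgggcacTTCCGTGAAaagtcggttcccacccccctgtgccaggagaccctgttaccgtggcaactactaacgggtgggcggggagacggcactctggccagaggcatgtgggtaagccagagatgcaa
4930452A19Rik: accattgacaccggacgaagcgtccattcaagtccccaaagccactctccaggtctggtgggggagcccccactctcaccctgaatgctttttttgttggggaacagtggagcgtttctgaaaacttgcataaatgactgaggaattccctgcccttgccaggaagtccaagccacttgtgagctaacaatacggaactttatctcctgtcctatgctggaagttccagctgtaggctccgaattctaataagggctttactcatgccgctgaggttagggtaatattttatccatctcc

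The window of Gm33714 lay at chr5:144479750-144480049 (minus strand), in a distal region 66.0 kb from a start of Nptx2, which encodes a secreted neuronal pentraxin. That of 1700011C11Rik was chr7:71960925-71961224 (plus strand), 117 kb from Mctp2. The Gm42262 window was chr4:22836213-22836512 (minus strand), 348 kb from Pou3f2, a transcription factor of the developing brain. The Gm35440 window was chr12:77749649-77749948 (plus strand), 274 kb from Fut8, a fucosyltransferase gene. The Gm38856 window was chr6:88152119-88152418 (plus strand), 41.6 kb from Gata2, and was the only one of the 6 with 2 matches to TTCCNGGAA. The window of Gm38902 was chr6:127818542-127818841 (minus strand), 49.3 kb from Prmt8, an arginine methyltransferase gene. The windows of Gm31318 and 4930452A19Rik were chr11:114303572-114303871 (plus strand) and chr17:9775817-9776116 (minus strand).

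Distal regions with the element ranged from strong to below the median. The region at Gm33714 had 29.0-fold enrichment in replicate 1 and 28.7-fold in replicate 2, that at 1700011C11Rik 27.3-fold and 20.7-fold, and that at Gm42262 24.1-fold and 19.4-fold. At the other end, the region at Gm38856 had 8.57-fold and 6.40-fold, and that at Gm38902 7.89-fold and 4.59-fold, although both had a full match. The strongest region with a window, at 4930452A19Rik with 43.9-fold and 43.8-fold, held neither set of letters in the 300 bases shown. That region is 3261 bp wide, and the window covers a small piece of it that holds the summits of both replicates. The 7 matches to TTCCNGGAA lay 18 to 101 bp from the replicate 1 summit (median 28 bp) and 9 to 119 bp from the replicate 2 summit (median 39 bp).

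TTCCNGGAA stood in 6 of the 36 windows (16.7%), against 111 of 1228 windows that held both summits of any other reproducible region (9.04%) and 377 of all 32851 windows (1.15%). TTCNNNGAA stood in 11 of the 36 (30.6%), against 20.9% and 8.30%. Over the 76 windows that shared at least 1 bp with a distal region, summits inside or not, the share with TTCCNGGAA was 9.21%. The windows are a small, annotated subset of the distal regions, and the matches describe these letters only. Summits inside a window lie beside a RefSeq start, so by RefSeq these regions are not over 25 kb from a start. The other distal regions' own sequences were not analysed here.

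The distal regions had nearly the same enrichment as regions elsewhere. Fold enrichment, the ratio of fragments at the summit to local background as the authors' peak caller gave it, had a median of 10.5 in replicate 1 and 7.56 in replicate 2, against 10.4 and 7.51 over the other 10627 regions. The differences of the medians were 0.02 and 0.01 on the log2 scale, with an SD of 0.0057 between the replicates. Within the distal regions themselves, replicate 2 minus replicate 1 had a median of -0.41. That is an offset between the libraries and not the spread of these differences. The median pileup, the height of stacked fragments at a peak's summit, was 68 in replicate 1 and 33 in replicate 2 for distal and for other regions alike. Regions over 20-fold in both replicates numbered 168 (7.31%), against a background of 7.76% of all regions. The irreproducible discovery rate (IDR), the authors' measure of how far the replicates rank a region alike, was at most 0.01 for 1799 (78.3%), against 79.3% of all regions.

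The classes compared most closely gave nearly the same medians. The 1602 intergenic regions 5 to 25 kb from a start had medians of 10.4-fold and 7.59-fold, and the 1792 regions inside a transcript and over 25 kb from a start had 10.3-fold and 7.50-fold. The 3092 regions within 1 kb of a start had 10.5-fold and 7.65-fold. The distal regions had a median width of 488 bp, and these promoter regions 571 bp. The intergenic regions 5 to 25 kb from a start had 486 bp and those deep inside a transcript 489 bp, level with the distal ones. At the upper end, the 95th percentile of distal regions was 27.7-fold in replicate 1 and 22.1-fold in replicate 2, against 30.2-fold and 24.3-fold within 1 kb of a start. It was highest in the intergenic regions 5 to 25 kb from a start, at 31.0-fold and 25.1-fold. Those deep inside a transcript were closer to the distal ones, at 28.5-fold and 22.3-fold.

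**Figure D1:**
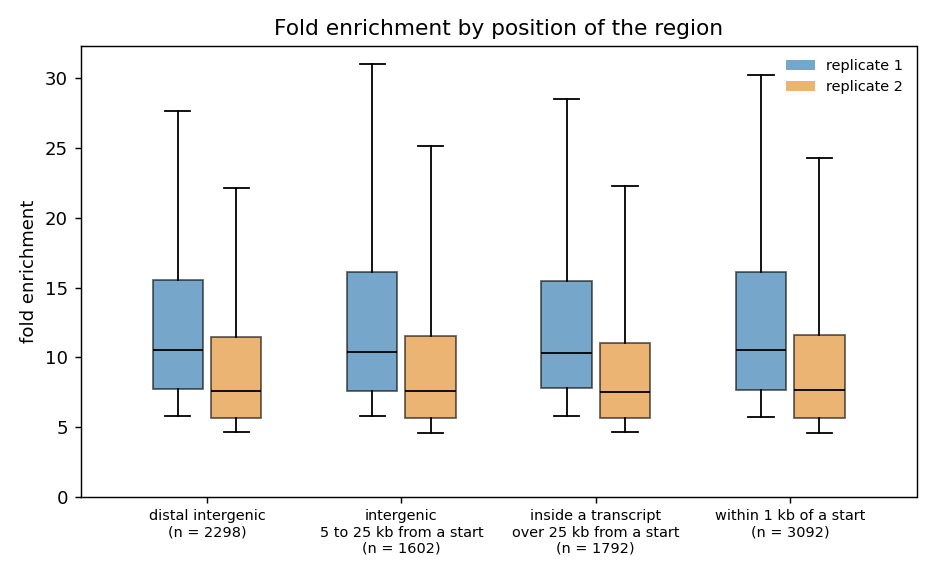
Fold enrichment (vertical axis, linear) of the distal intergenic regions and 3 other classes of region, in replicate 1 (blue) and replicate 2 (orange). Boxes span the quartiles with the median as a line, and whiskers run from the 5th to the 95th percentile; the distal medians of 10.5 and 7.56 lie level with those of the other classes.

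Both replicates ordered the distal regions alike, as they did all reproducible regions. All had been kept at an IDR of at most 0.05, so this agreement was in part selected for. Enrichment was higher in replicate 1 in 2181 of 2298 (94.9%), against 95.1% of all regions, and log2 fold enrichments in replicates 1 and 2 had a Pearson's r of 0.933 and a Spearman's rho of 0.904 over the 2298 regions, which share their libraries. Over all reproducible regions, Pearson's r was 0.936 and Spearman's rho 0.905. The strongest peaks of both replicates had their summits within 100 bp in 2194 distal regions (95.5%), against 95.7% of all regions. The median distance in the distal regions was 22 bp. A weak group with a low score in the authors' table held 145 regions in all and 23 distal ones. Its 23 distal regions had a median of 3.39-fold and 2.99-fold.

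**Figure D2:**
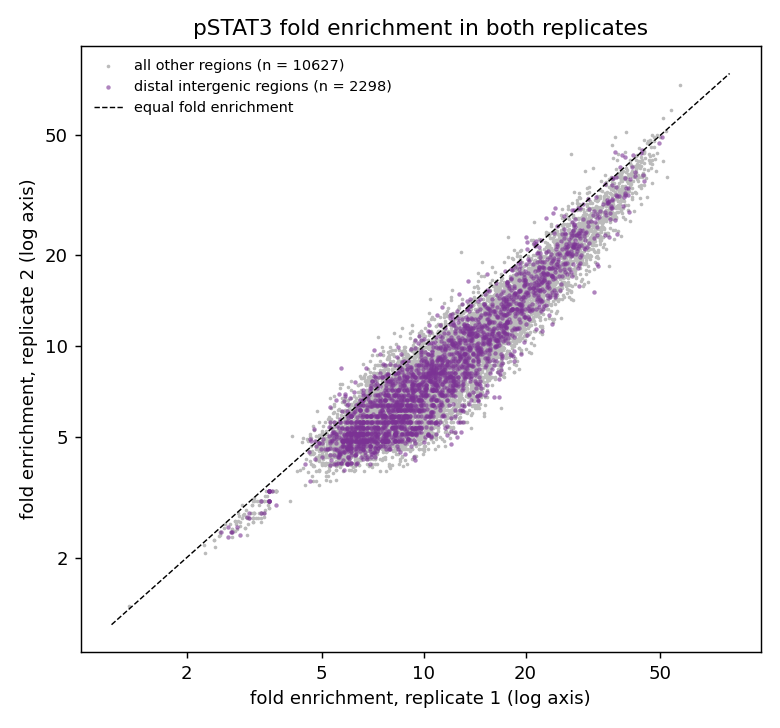
Fold enrichment of each reproducible region in replicate 1 (horizontal) and replicate 2 (vertical), both on log axes, with distal intergenic regions in purple over all others in grey. Most points lie below the dashed line of equal enrichment, and the purple points span the grey cloud except for its ends, the strongest distal region having 50.4-fold and 49.4-fold and the lowest values being 2.52-fold and 2.33-fold.

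Of single-replicate peaks whose summits lay over 25 kb from any protein-coding gene of the reference table, 5292 of 8947 in replicate 1 (59.1%) overlapped a replicate 2 peak, against 55.9% of peaks in all other sequence. In replicate 2, 5429 of 5888 such peaks (92.2%) had a partner, against 92.3%. The lists were of unequal length, 42189 and 26649 peaks, and the caller's lowest background of 4.72 and 2.91 fragments is the only measure of depth in them.

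The strongest distal region ranked 5th of all 12925 by the lower of both fold enrichments. It lay at chr10:95142621-95144078, 31.4 kb beyond the end of Cradd, which encodes a death-domain adaptor that recruits caspase-2, and 181 kb from its listed start. It reached 50.4-fold in replicate 1 and 49.4-fold in replicate 2, with 287 and 192 stacked fragments. A region at chr10:95144506-95145200 with 17.4-fold and 10.7-fold and one at chr10:95145343-95146100 with 11.2-fold and 6.91-fold followed within 3.48 kb, all inside the noncoding gene Gm29684. On the far side of this 230 kb gap lies Plxnc1, a semaphorin receptor gene.

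The next came close in strength in both replicates. The region at chr12:86781237-86782383 had 49.5-fold and 47.2-fold and lay between Lrrc74a, 12.8 kb away, and Irf2bpl, 98.9 kb away. At chr5:23164671-23167214 the enrichment was 44.0-fold and 44.6-fold. By the authors' table this was intergenic, but it fell inside Lhfpl3 of the RefSeq annotation, a gene widely used as a marker of oligodendrocyte progenitors. The region at chr17:9774546-9777806 had 43.9-fold and 43.8-fold, 106 kb upstream of Pabpc6 and 430 kb from Qk, whose product Quaking binds RNAs of myelin genes.

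Other regions of the 25 strongest lay beside genes of varied roles. A region 160 kb upstream of Myt1l, a zinc finger factor of neurons, had 41.1-fold and 39.2-fold (chr12:29368100-29369121). One 70.6 kb upstream of Slc1a3, the glutamate transporter GLAST of astrocytes and their precursors, had 40.8-fold and 35.8-fold (chr15:8780615-8782061). At chr16:94723785-94725261, a region between the kinase gene Dyrk1a and the potassium channel gene Kcnj6 had 41.5-fold and 42.9-fold, in a gap of only 49.5 kb. A region 132 kb from Tle3, which encodes a Groucho corepressor, had 38.0-fold and 39.3-fold (chr9:61549501-61550638). One 157 kb from Pou3f3, a POU factor of the developing brain, stood at 36.0-fold in both replicates (chr1:42538311-42539689) within a gap of 1839 kb.

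Mcur1, a regulator of mitochondrial calcium uptake, had a region of 39.3-fold and 42.4-fold 7.23 kb from its end (chr13:43530498-43531862). A region between Phlda1 and the ribosome factor gene Krr1 had 38.6-fold and 43.0-fold, 150 kb and 314 kb from them (chr10:111658399-111659751). Between Tmem161b and Ccnh, the cyclin H gene, a region of 42.2-fold and 37.9-fold stood 153 kb from the first (chr13:84448308-84449933). The TGF-beta receptor gene Tgfbr2 and the RNA-binding protein gene Rbms3 flanked one of 37.0-fold and 36.3-fold, almost midway at 201 kb and 196 kb (chr9:116375743-116376771). A region of 34.3-fold and 34.6-fold lay between Vegfa, 52 kb away, and Mrps18a, 26.6 kb away (chr17:46084008-46084703). Of the 100 strongest regions of all, 11 were distal intergenic, fewer than their 17.8% share of all regions would give. Of the 1000 strongest, 167 (16.7%) were, near that share.

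The weakest distal regions had an enrichment of 2.33-fold to 2.43-fold in replicate 2. At chr1:153974380-153974616, 64.8 kb from Glul, the glutamine synthetase gene, it was 2.66-fold in replicate 1 and 2.33-fold in replicate 2, on 19 and 14 fragments. The only one of the 5 weakest on the X chromosome, 14.8 kb from Rap2c, had 2.52-fold and 2.43-fold.

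The median distance from a listed start was 62.6 kb (quartiles 39.1 and 114 kb), and 673 regions (29.3%) were over 100 kb and 17 over 500 kb away. Upstream and downstream of the nearest start were about equally common, with 1213 and 1085 regions. A listed 3' end lay within 25 kb of 336 regions (14.6%). Enrichment hardly varied with distance: at 25 to 50 kb the 867 regions had medians of 10.5-fold and 7.60-fold, and at 250 to 500 kb the 127 regions had 10.3-fold and 7.28-fold. The 17 regions over 500 kb away had medians of 9.96-fold and 7.68-fold. At the boundary, the closest region inside the rule, 25.0 kb from a start of B230206L02Rik, had 13.2-fold and 8.54-fold, and the closest outside it, by Gm20954, had 14.7-fold and 6.45-fold. The 5 nearest on the inner side spanned 6.83-fold to 16.2-fold in replicate 1, and the 5 on the outer side 8.40-fold to 35.5-fold.

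**Figure D3:**
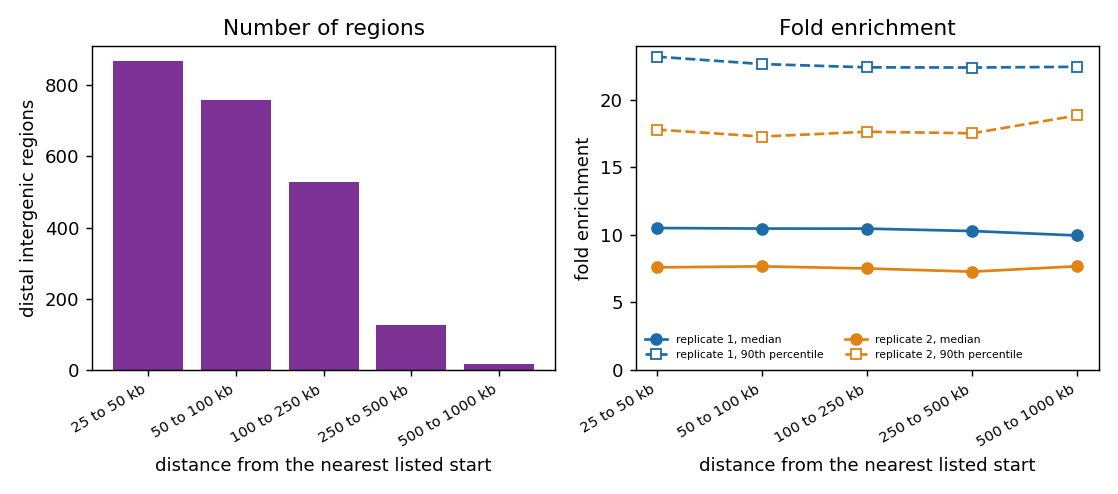
Number of distal intergenic regions (left, linear axis from 0) and their median and 90th percentile fold enrichment in each replicate (right) by distance of the midpoint from the nearest listed start. Counts fall from 867 at 25 to 50 kb to 17 at 500 to 1000 kb, while the medians stay between 9.96 and 10.5 in replicate 1 and between 7.28 and 7.68 in replicate 2.

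The farthest region lay 937 kb from a start of Nxph1, which encodes the synaptic ligand neurexophilin 1, at chr6:9886503-9887048, with 8.22-fold and 5.38-fold. Another in the same gap, 841 kb from that start, had 13.9-fold and 10.8-fold (chr6:9790480-9791023). The strongest of the 10 farthest stood alone, with 28.5-fold and 28.7-fold at chr6:20397266-20397962, 1171 kb from any other reproducible region. It lay 818 kb from Kcnd2, a potassium channel gene of neurons, and 1518 kb from Ankrd7. Most of the other 7 named by distance were modest, such as 6.08-fold and 5.63-fold between Prmt6 and Amy2b (chr3:111375284-111375512). A pair with midpoints 0.761 kb apart, 772 and 771 kb from Cenpc1 and 773 and 774 kb from Gm42163, had 12.6-fold and 7.68-fold, and 8.23-fold and 8.19-fold.

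The authors' table leaves some genes unnamed, which bears on the word intergenic. Against all RefSeq genes, 1764 regions (76.8%) were outside every gene, 534 (23.2%) inside at least 1 of any kind and 108 (4.70%) inside a protein-coding gene. Of those 108, 25 fell in protein-coding genes that the table does not name. Counted from either end of every RefSeq gene, noncoding genes included, 1023 regions (7.91% of all) were outside all genes and over 25 kb away. The median distance to the nearest end of a protein-coding gene was 78.4 kb.

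The gaps between protein-coding genes gave a wider view of where the regions sit. In all, 2190 regions lay in such gaps, whose median width, counted once for each region, was 404 kb. They were spread over 1174 gaps, of which 713 held a single region and 74 held 5 or more, together 494 regions. Gaps of 500 kb or wider, called gene deserts here, held 979 of the regions (42.6%).

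The density of distal regions fell as gaps widened. Counted over sequence more than 25 kb from the flanking genes, it fell from 3.20 regions per Mb in gaps of 50 to 100 kb to 2.67 at 100 to 250 kb, 2.02 at 0.5 to 1 Mb, 1.32 at 1 to 2 Mb and 0.479 in gaps over 2 Mb. Peaks of replicate 1 fell from 15.6 to 2.05 per Mb over the same range and peaks of replicate 2 from 10.6 to 1.34. All reproducible regions in that sequence, whatever their class, fell from 5.71 to 0.585 per Mb. Deserts of 500 kb or wider made up 65.8% of the far sequence and held 948 of the 1885 distal regions in it.

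At a fixed distance from a gene, the lowest density of distal regions was in gaps over 2 Mb, and their fall across narrower gaps was not steady in every band. Between 25 and 50 kb from the nearest flanking gene, gaps of 100 to 250 kb had 2.67 regions per Mb (201 regions) and gaps over 2 Mb 0.482 (2 regions in 4.15 Mb). Between 50 and 100 kb from a gene, the density was 1.90 per Mb in gaps of 250 to 500 kb, 2.19 in gaps of 0.5 to 1 Mb, 1.82 in gaps of 1 to 2 Mb and 0.843 in gaps over 2 Mb (7 regions). Between 100 and 250 kb from a gene, gaps of 0.5 to 1 Mb had 2.17 per Mb (244 regions), gaps of 1 to 2 Mb 1.87 and gaps over 2 Mb 0.924 (23 regions). Gaps of 0.5 to 1 Mb and of 1 to 2 Mb differed little at 25 to 50 kb, at 2.09 and 2.12 per Mb. The part of assembly gaps and of sequence that reads cannot be placed in was not tested. The regions that deserts did hold had similar enrichment, with medians of 10.5-fold and 7.62-fold in deserts of 500 kb or wider against 10.3-fold and 7.48-fold in narrower gaps over 50 kb.

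**Figure D4:**
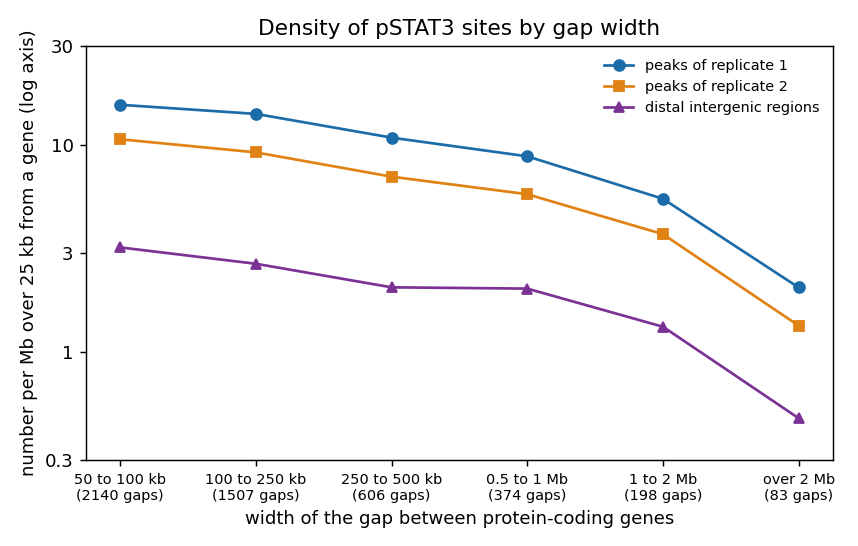
Number per Mb (log axis) of replicate 1 peaks, replicate 2 peaks and distal intergenic regions, by width of the gap between protein-coding genes, counted over sequence more than 25 kb from the flanking genes. All 3 series fall with gap width, the distal regions from 3.20 to 0.479 per Mb.

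The widest gaps held from 1 to 5 distal regions each. The widest with any, 4542 kb between the protocadherin genes Pcdh20 and Pcdh9, had 2, of which the stronger had 14.0-fold and 9.47-fold and lay 1479 kb from Pcdh9 (chr14:91534900-91535352). The 4511 kb between Celf4, an RNA-binding protein gene of neurons, and the lipid kinase gene Pik3c3 had 4, the strongest at 28.9-fold and 19.7-fold, 2193 kb from Celf4. The 4420 kb between Olfm4 and Pcdh17 had 5, led by one of 20.5-fold and 13.6-fold, 500 kb from Olfm4 (chr14:80522553-80522989). The gap from the teneurin gene Tenm3 to Aga and that from the netrin-G ligand gene Lrrc4c to Iftap had 1 each, of 9.10-fold and 5.63-fold and of 8.86-fold and 5.04-fold. Of the 281 gaps of 1 Mb or wider, 109 had none. The widest of the empty gaps, 3295 kb between Pabpc4l and Pcdh18, held no reproducible region of any class.

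At the other extreme were gaps with 10 to 12 distal regions. The gap from Pabpc6 to Qk, 537 kb wide, held 12, and these were all the reproducible regions in it. Beside the one of 43.9-fold and 43.8-fold, it had a region of 34.5-fold and 27.1-fold (chr17:9904435-9906750) and one of 28.8-fold and 18.5-fold (chr17:9725392-9727143). The lowest in replicate 1 had 5.68-fold and 5.61-fold (chr17:9751359-9752293), and the lowest in replicate 2 had 5.79-fold and 4.22-fold (chr17:9873974-9874439). Of the 12, 11 lay 56.6 to 236 kb from Pabpc6, and 1 lay 127 kb from Qk.

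Rps24 and Zmiz1 enclosed 12 more over 961 kb, with a strongest region of 23.8-fold and 20.2-fold 140 kb from Zmiz1, which encodes a PIAS-like transcriptional coregulator (chr14:25317641-25319070). A desert of 1498 kb between Nrsn1 and Hdgfl1 also had 12. Its strongest, 44.3-fold and 36.8-fold at chr13:26698515-26699694, lay 69.1 kb from Hdgfl1, and 5 of the 12 lay within 193 kb of that gene. Irs2, an insulin receptor substrate, closed a 350 kb gap from Myo16 with 11 distal regions, the strongest 37.3-fold and 23.5-fold at 113 kb from Irs2 (chr8:10870851-10871960). Of these, 6 formed the longest run of neighbours, over 25.4 kb ending 6.26 kb from Irs2, with 8.64-fold to 22.6-fold in replicate 1 and 5.13-fold to 18.1-fold in replicate 2.

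Another 3 gaps had 10 each. Between Mn1, a transcriptional coregulator gene, and Cryba4, the region closest to Mn1 lay 9.12 kb from it and was the strongest, with 27.8-fold and 25.3-fold (chr5:111465924-111466376). In the 1208 kb from Klf4, a zinc finger factor known for its part in reprogramming, to Actl7b, the strongest region had 27.0-fold and 22.7-fold and lay 233 kb from Actl7b and 975 kb from Klf4 (chr4:56506580-56507378). The 1709 kb between Agtr1b and Tbl1xr1, a corepressor subunit gene, held none above 16.5-fold in replicate 1 and 10.4-fold in replicate 2, the lowest maximum of the 7 gaps.

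**Figure D5:**
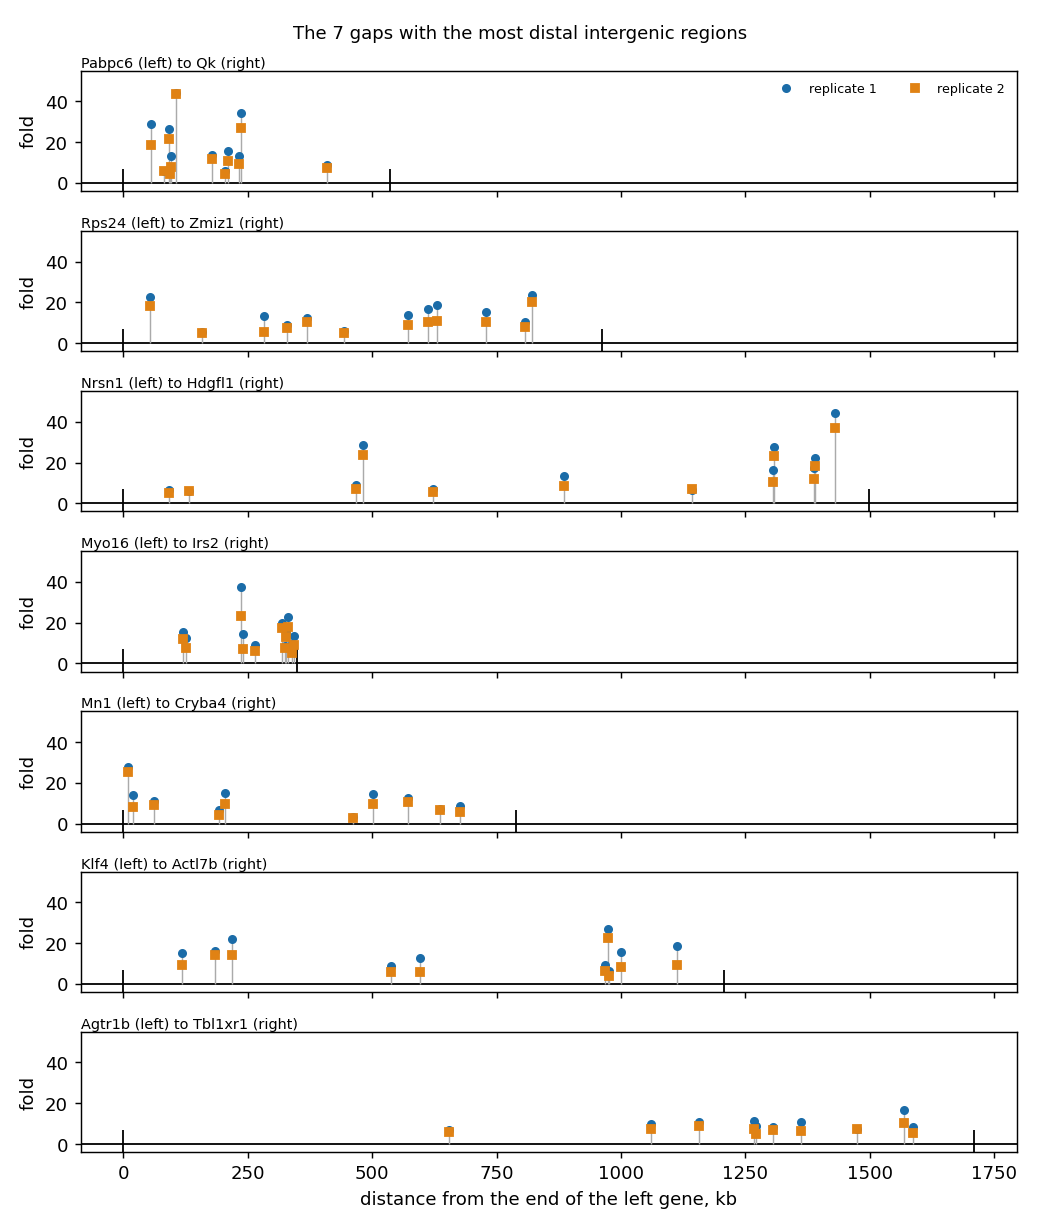
Fold enrichment (vertical axis) of each distal intergenic region in the 7 gaps with the most of them, by distance from the end of the left gene in kb (horizontal axis), in replicate 1 (circles) and replicate 2 (squares). Ticks on the baseline mark the flanking genes; the Pabpc6 to Qk and Myo16 to Irs2 gaps are short and crowded, and the Agtr1b to Tbl1xr1 gap is long with no region above 16.5-fold.

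Most distal regions stood alone. Another reproducible region of any class had its midpoint within 12500 bp of 529 distal regions (23.0%), against 31.3% of all regions, 34.8% of intergenic regions 5 to 25 kb from a start and 27.1% of those deep inside a transcript. The rule fixes part of this: no region within 12500 bp of a listed start can be such a neighbour of a distal region. The same limit holds for the regions deep inside a transcript, but not for the other 2 shares. The share fell with distance, from 28.5% at 25 to 50 kb from a start to 8.66% at 250 to 500 kb. Here too the choice by distance has a part, since a neighbour of a far region must itself be far from listed starts. Joined at 12500 bp, the distal regions formed 2033 runs, of which 1810 were single regions, 223 held 2 or more and 32 held 3 or more. Runs of 5 lay by Pabpc6, with the 43.9-fold region, and by Cyp1b1, a cytochrome P450 gene, with up to 22.0-fold and 19.2-fold.

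Chromosomes differed in how densely distal regions filled the far sequence. Over the 19 autosomes the mean was 1.89 ± 0.526 per Mb (SD over chromosomes), from 1.08 on chromosome 1 to 3.07 on chromosome 13. The X chromosome had 0.325 per Mb, with 34 distal regions in all. Peaks of both replicates were also sparse there, at 1.97 and 1.29 per Mb, against 7.44 and 4.85 on chromosome 1. The sex of the animals and the number of X copies in the cells were not given in the labels, and their part was not tested.

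The protein-coding genes nearest to the distal regions numbered 1401. Of these, 355 (25.3%) also had a reproducible region within 5 kb of a listed start, against a background of 18.1% of all 21887 protein-coding genes and 28.6% of the genes nearest to other regions over 5 kb from a start. The regions whose nearest gene had such a promoter region numbered 647 (28.2%). Gene lists of neural and cytokine biology are given next, by nearest protein-coding gene; a long gap gives its flanking genes more room to be nearest, and gap width was not matched. The background for the counts of listed genes is 1401 of 21887, the protein-coding genes nearest to at least 1 distal region. Some genes, such as Ptprz1, Sox9 and Sall1, stand in 2 lists.

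Developmental and neural transcription factors were nearest to 112 distal regions (4.87%), against 3.43% of all regions, and 52 of the 116 listed genes had at least 1. Their median enrichment was 12.1-fold and 8.21-fold, against 10.5-fold and 7.56-fold over all distal regions. Medians of the other lists ran from 6.04-fold and 5.21-fold (olfactory and vomeronasal receptors) to 12.7-fold and 8.55-fold (immediate early and other response genes). Beyond Myt1l and Pou3f3, the strongest were at Tcf7l2, the Wnt pathway effector that oligodendrocytes need to mature, with 33.2-fold and 28.2-fold 96.2 kb from the gene (chr19:56029390-56030254). Sox11, an HMG-box factor of immature neural cells, had 4 regions, of which one 233 kb away reached 32.0-fold and 25.9-fold (chr12:27575536-27576600).

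Immediate early, AP-1, KLF and STAT response genes were nearest to 39 regions (1.70%, background 1.42%), for 15 of 60 genes. The strongest lay 35.1 kb from Klf7, with 30.5-fold and 30.8-fold (chr1:63993637-63995124). Bhlhe40, a basic helix-loop-helix repressor, had one of 35.7-fold and 29.2-fold 42.8 kb away (chr6:108709184-108710265), and Jun, the AP-1 subunit, one of 27.5-fold and 20.0-fold 251 kb away (chr4:95303192-95303864). Lifr, a subunit of the CNTF receptor complex, had 2, the stronger with 26.2-fold and 18.7-fold, 44.4 kb upstream of the listed start and 5.48 kb from the RefSeq gene (chr15:7084803-7085458).

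Adhesion, axon guidance and synapse genes were nearest to 87 regions (3.79%, background 2.62%), for 48 of 101 genes. Ptprz1, a receptor phosphatase of glial progenitors, led with 37.1-fold and 31.7-fold at 40.8 kb upstream (chr6:22834228-22835125), and the cadherin gene Cdh13 followed with 35.1-fold and 29.7-fold at 106 kb (chr8:118033642-118034928). Growth factor, Notch, BMP, Wnt and FGF signalling genes were nearest to 40 regions (1.74%, background 1.21%), for 26 of 76 genes. The neurotrophin receptor genes Ntrk3 and Ntrk2 had the strongest, with 32.5-fold and 26.6-fold at 408 kb and 27.9-fold and 24.8-fold at 10.0 kb. Spry2, an inhibitor of receptor tyrosine kinase signalling, had 28.1-fold and 21.1-fold at 159 kb (chr14:105732114-105733893).

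Both lists of the oligodendrocyte lineage had shares of the distal regions below the background, but not shares of genes. Progenitor genes were nearest to 13 regions (0.566%, background 0.836%), for 6 of 28 genes. These included Lhfpl3 with 3, Ptprz1 with 2, and the xylosyltransferase gene Xylt1 with 3, up to 21.6-fold and 14.3-fold 64.5 kb upstream (chr7:117316221-117316645). Myelin genes were nearest to 3 regions (0.131%, background 0.356%), at Qdpr, Nfasc and Bcas1, and none of these passed 13.5-fold. Counted by genes, 21.4% of the progenitor list and 8.57% of the 35 myelin genes were nearest to a distal region. Both were above the background of 1401 of 21887 protein-coding genes. The share of astrocyte genes was near the background, with 18 regions (0.783%, background 0.743%) for 7 of 26 genes. Slc1a3 had 5 of them and Sox9, a factor of glial fate, had 6, up to 21.3-fold and 15.4-fold.

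Lists of other cell types are short, and their counts are read only against the background. Microglia genes were nearest to 5 (0.218%, background 0.101%), at Sall1 and Ptprc alone, and neuron genes to 7 (0.305%, background 0.279%), at Celf4, Gap43 and Rbfox3. Endothelial, mural and fibroblast genes were nearest to 4 (0.174%, background 0.201%). Olfactory and vomeronasal receptors, which fill long gene clusters, were nearest to 3 of the 2298 regions (0.131%, background 0.124%) although the list has 1465 genes. The highest of the 3 had 11.3-fold and 7.51-fold, 32.5 kb from Olfr24 (chr9:18721929-18722385).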

How the data were processed

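Phosphorylated STAT3 ChIP-seq gave 1 peak list for each of 2 libraries and 1 table of reproducible regions over both. The submitters' processing notes name CASAVA 1.8, Bowtie2, MACS2 and the build GRCm38.p3, without options. In the peak lists, the fold enrichment was read as a ratio to local background and the pileup signal as the count of fragments stacked there. The deposited columns with damaged headers hold −log10 p and −log10 q values: p recomputed from pileup and fold by a Poisson tail matched within 0.1% for 99.6% and 99.985% of peaks. In the deposited region table, the adjusted p-value column holds the IDR (at most 0.05). Its deposited score is the mean −log10 p of the strongest overlapping peaks in 12377 of 12925 regions, within 0.001, and served only to mark the weak group (score under 7).

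In each replicate a region took the fold of its strongest overlapping peak, and strength was the lower of both. Starts and 3' ends came from the 42113 transcripts of the region table. Nearest protein-coding genes, gaps and distances to them came from a RefSeq gene table of GRCm38.p6, the same primary assembly at a later patch. Of 7954 symbols in both tables, 85.4% had starts within 50 bp. Densities leave out chromosome Y and do not remove assembly gaps. Analyses used scipy 1.17.1, pandas 2.3.3 and numpy 2.4.6 under Python 3.11.15, with figures by matplotlib 3.10.9, and the position steps were tested on simulated data. Intervals cover counting error only, and the sources used here give no read depth.

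The regions and the 11 gene lists were chosen with earlier results of these data known. Named were the 25 strongest, 10 farthest and 5 weakest regions, those in the 5 widest gaps and in the gaps with most regions (ties kept), up to 4 per list, the 5 on each side of 25 kb, and those near Cradd; not all are printed. Genes beside the printed sequences were named because a window held both summits. Alternatives were other distances, positions, gene tables, IDR limits and overlaps, and each replicate alone.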

Additional observations from a re-analysis of the deposited data

How the results depend on the processing

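The IDR table was made from both replicates, so only strength could be taken from each alone. The 11 results were recomputed under the alternatives that apply to each, which gave 62 values, and 39 stayed within 1.5 times (counts), the 95% interval (shares) or the replicates' SD (medians, differences and ratios). The regions fell from 2298 (17.8%) to 1431 (11.1%) over 50 kb from a start and 673 (5.21%) over 100 kb. With either end of every RefSeq gene they numbered 1023 (7.91%). The share was 17.1% without the regions inside RefSeq protein-coding genes. The median of the lower fold was 7.50, and 7.56 to 10.5 with 1 replicate left out. The difference of median log2 fold between distal and other regions, 0.0026 by the lower fold, was 0.0097 to 0.0177 with 1 replicate left out. It was -0.0116 over 100 kb from a start and -0.0391 with RefSeq genes, all close to 0. The share with a neighbour within 12500 bp, 23.0%, was 12.53% at 5 kb and 35.8% at 25 kb. Partner shares of far intergenic peaks, 59.1% and 92.2%, were 52.1% and 79.2% with overlap of at least 50% of each peak and 47.7% and 98.8% at a −log10 q of at least 10. The density in gaps of 100 to 250 kb was 5.56 times that in gaps over 2 Mb. The ratio was 5.85 on autosomes, 5.33 at an IDR of 0.01 or below, 5.54 at 25 to 50 kb from a gene, and 6.86 to 6.88 for peaks of 1 replicate. The share of windows with TTCCNGGAA, 16.7% of 36, was 9.21% of 76 windows sharing at least 1 bp with a region. Alternatives for the density ratio and the windows, and those without the weak group or the regions inside RefSeq protein-coding genes, were chosen after seeing the data. At an IDR of 0.01 or below, the share meeting that limit has no value of its own. The causes of these shifts were not tested. No paired analysis was possible because both ChIP libraries belong to 1 group and the inputs were not analysed here. The depth of the libraries is known only through the peak caller's background, which limits what weak sites show.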

Other observations

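Some genes of cytokine response and neural development had several distal regions, none of them among the up to 4 strongest named for each list. These genes were chosen after their values were seen. Gadd45g, a growth arrest and DNA damage gene, was the nearest protein-coding gene of 6 distal regions, with up to 22.4-fold and 17.5-fold enrichment in replicates 1 and 2. Fos, the AP-1 partner of Jun, was nearest to 3, with up to 24.5-fold and 18.0-fold. The Krüppel-like factor genes Klf4, Klf12 and Klf6 were nearest to 5, 5 and 4. Their strongest had 22.1-fold and 14.3-fold, 20.0-fold and 16.6-fold, and 19.1-fold and 13.8-fold in that order. Zfp608, a zinc finger gene, was nearest to 10, with up to 22.9-fold and 20.5-fold. Sox2, a factor of neural stem and progenitor cells, was nearest to 6, with up to 29.9-fold and 22.5-fold.

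The RefSeq annotation put 3 distal regions inside Lhfpl3, which the authors' table does not name. Beside the one of 44.0-fold and 44.6-fold, they included a region as low as 4.63-fold in replicate 1, and all 3 lay within 5.87 kb.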
